A study of Mus musculus with 6 samples.

Results

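The genes described here encode the proteins of the cytosolic ribosome, read on 6 mouse arrays. Members were all probe sets whose single platform symbol begins with Rpl or Rps, followed by a number and at most 1 of the letters a, l, x or y. The rule used names only, and no measured value. It found 205 probe sets, of which 32, belonging to 15 genes, were empty on all arrays, and 173 of the 34499 probe sets with values remained. These 173 probe sets represent 55 of 19934 genes, with 34 genes (110 probe sets) of the large subunit and 21 genes (63 probe sets) of the small subunit. A gene had 1 probe set in 20 cases and several in 35. A further 190 probe sets named several genes, at least 1 of them with such a symbol, and were left out of the main result. Rpl3, Rpl11, Rpl13a, Rpl35a, Rpl39, Rps24, Rps26 and Rps27 were therefore not members, since no probe set with values named them alone.

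All cells came from C57BL/6 mice aged 8 weeks whose marrow donors had been treated with 5-fluorouracil (5-FU), a drug that kills dividing cells. Donor marrow was infected with a retrovirus and transplanted into B6 recipients, and GFP-positive Lin-c-Kit+Sca-1+ marrow cells, the gate of blood stem and early progenitor cells, were sorted 14 days later. HSC denotes cells carrying GFP alone. LSC (leukaemia stem cells) carried BCR-ABL, the fusion kinase of chronic myeloid leukaemia, with GFP in marrow of wild-type donors. Alox5-/- LSC carried BCR-ABL with GFP in marrow of donors without Alox5, which encodes a lipoxygenase that starts leukotriene synthesis, and no vector group from such donors was analysed here. The kinase was delivered by a virus and not expressed from its own locus, and the recipients were B6 mice in every group. Each group had 2 arrays, titled as biological replicates. The number of mice behind an array is not given in the sources used here, so p-values reflect only the spread between these samples. The comparison of LSC with HSC asks which scores differ with BCR-ABL, and that of Alox5-/- LSC with LSC asks which differ when Alox5 is absent from BCR-ABL cells.

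The deposited value is a score whose unit, log base and direction are not given in the sources used here. Scores reached 62.1, and on each array between 33.5% and 53.7% of probe sets lay above 16, the ceiling of log2 values from a 16-bit scan. A higher score can therefore not be read as more RNA, and every value below is a score or a difference of scores. In these sorted bulk samples, fewer cells of a type and less RNA per cell cannot be told apart. Array medians ran from 14.5 to 16.4. Of the gate's own markers, Kit scored between 10.5 and 15.4 and Cd34 between 11.4 and 16.5, and with an unknown direction these levels do not test the label. The listed markers of erythroid, granulocyte, monocyte, B, T and NK, megakaryocyte and stromal cells had array medians between 10.5 and 19.5, and 0 of them were at a score of 0. Of 45 such markers measured, 3 were higher and 5 lower at an unadjusted limma p under 0.05 in LSC minus HSC (0.968% and 3.74% of all genes), 1 and 3 in Alox5-/- LSC minus LSC (0.813% and 2.59%), and 2 and 4 in Alox5-/- LSC minus HSC (0.742% and 6.24%), with 0 at an adjusted p under 0.05. Rhag, an erythroid membrane protein, differed by 11.03 (SE 2.18) in LSC minus HSC, and Cd79a, a B cell receptor chain, by -10.6 (SE 2.08). Vpreb3 of early B cells differed by 8.40 (SE 1.503), and C1qb and Cx3cr1 of macrophages and monocytes by -6.92 (SE 1.35) and -6.59 (SE 1.42). Some other markers on these lists ran the other way: Vpreb1 differed by -4.35 (SE 1.76), Csf1r by 2.16 (SE 1.91), Cd68 by 2.13 (SE 1.59) and Lyz2 by 1.95 (SE 2.74). In this comparison 3 of 6 measured erythroid, 3 of 6 monocyte and 3 of 7 B cell markers lay below the median of all genes. Of the gate's 7 measured genes, 2 were higher and 2 lower at an unadjusted limma p under 0.05 in LSC minus HSC. There Slamf1 differed by 5.31 (SE 1.29), Procr by 3.69 (SE 1.48), Meis1 by -4.52 (SE 1.38) and Cd34 by -3.43 (SE 1.21). The gate's counts were also 2 and 2 in Alox5-/- LSC minus HSC, and 0 and 0 in Alox5-/- LSC minus LSC. The part of these markers in the ribosomal protein values was not tested.

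The cytosolic ribosome joins a small subunit, which reads the messenger RNA, to a large subunit, which forms the peptide bond. Its proteins are made in matched amounts, and their messenger RNAs commonly begin with a run of pyrimidines through which mTORC1 signalling controls their translation. Blood formation is sensitive to the supply of these proteins: loss of 1 copy of genes such as Rps19 or Rpl5 causes Diamond-Blackfan anaemia, and loss of Rps14 takes part in the 5q- syndrome. The mouse genome also holds many processed copies of these genes, and which transcripts each probe set reads was not tested.

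Sequence around the RefSeq start is shown for 6 members that are named below. They were chosen after their values were seen, and other members named below are not shown. Each line gives the gene strand 5′ to 3′ from RefSeq on GRCm38.p6, with 40 bases before the start and 20 from it, and capitals mark the longest run of C and T inside the 20 bases on either side of the start. In Rps25 further pyrimidines lie just outside those bases. Whether the probe sets named below read transcripts from these starts, or from processed copies elsewhere, was not tested.
Rps25 (chr9:44407674-44407733, + strand): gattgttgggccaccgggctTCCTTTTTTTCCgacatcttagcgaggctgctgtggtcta
Rps9 (chr7:3704001-3704060, + strand): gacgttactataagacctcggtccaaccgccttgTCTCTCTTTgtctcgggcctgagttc
Rps6 (chr4:86857348-86857407, - strand): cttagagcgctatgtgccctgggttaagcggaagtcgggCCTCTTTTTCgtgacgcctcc
Rpl12 (chr2:32961672-32961731, + strand): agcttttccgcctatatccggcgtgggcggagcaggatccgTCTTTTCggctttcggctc
Rps19 (chr7:24884552-24884611, + strand): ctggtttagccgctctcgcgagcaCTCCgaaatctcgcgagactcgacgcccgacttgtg
Rpl10l (chr12:66284382-66284441, - strand): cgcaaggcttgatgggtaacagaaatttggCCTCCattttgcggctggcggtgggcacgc

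The marked part was 12 bases long in Rps25, 10 in Rps6, 9 in Rps9, 7 in Rpl12, 5 in Rpl10l and 4 in Rps19. Of the 55 member genes, 44 had a start window in the RefSeq table, 300 bases long, and 11 had none. A run of at least 8 pyrimidines within 20 bases of the start was found in 43.2% of the 44 genes and in 18.3% of 17492 protein-coding genes. The other 7 features were sought on both strands of the whole window. CTTTCC, 6 of the pyrimidine letters common at these starts, was present in 50% of member genes and 28.8% of protein-coding genes. CCGGAAG, a core read by the ETS family, was present in 36.4% and 12.9%. The SP1 letters GGGCGG were present in 54.5% and 49.2%, the YY1 letters AAGATGGC in 4.55% and 3.57%, and the E-box CACGTG, read by Myc, in 11.4% and 8.91%. The TATA letters TATAAA were present in 11.4% and 14.8%, and the NRF1 letters (GCGC, AT and GCGC in a row) in 4.55% and 1.47%. Some letters can overlap, and these shares describe letters in a window and not bound sites.

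Ribosomal protein probe sets covered an unusually broad band of the score. Their mean scores over the 6 arrays ran from 0.506 to 41.0 with a median of 11.3 (SD 8.34 over 173 probe sets), against a median of 15.6 (SD 4.68) over all probe sets. Of the 173, 43 (24.9%) lay in the lowest 5% of all probe sets and 22 (12.7%) in the highest 5%. The highest mean belonged to Rpl5, a large subunit protein that carries 5S RNA, at 41.0 through 1 probe set, while its other 3 probe sets lay at 17.2, 8.59 and 5.95. The largest span within a gene was that of Rpl5, 35.1 units, followed by Rps12 (34.5), Rpl27a (29.0), Rpl23a (28.8) and Rps25 (28.7). The lowest highest-probe-set mean was that of Rpl41, a very small large subunit protein, whose single probe set lay between 2.58 and 3.88 on the 6 arrays.

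**Figure D1:**
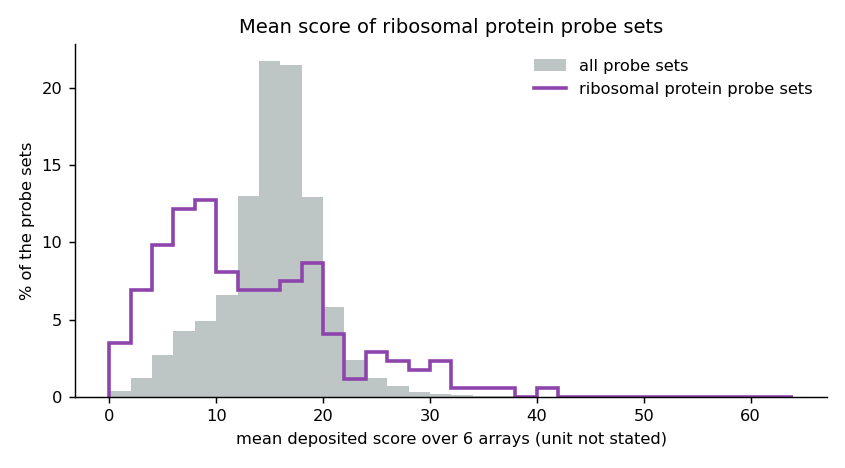
Mean deposited score over 6 arrays (x axis, unit not stated) against the percent of probe sets in each interval (y axis), for 173 ribosomal protein probe sets (line) and all 34499 probe sets (filled). The members have a median of 11.3 and reach further than the whole into both low and high scores.

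The spread of the members' scores within groups differed between bands of mean score, without a steady order. The median residual SD within groups was 0.984 for members and 1.51 for all probe sets, and among the lowest 25% of probe sets by mean score it was 0.798 for the 96 members there and 1.64 for all. In the next 3 bands of 25% it was 1.55 for 15 members against 1.37, 1.00 for 18 against 1.48, and 1.64 for 44 against 1.61. Between arrays of 1 group, Pearson's r over the members ran from 0.949 to 0.976, and between groups from 0.944 to 0.980, against 0.782 to 0.839 over all probe sets and all pairs. Such correlations run across probe sets and not across samples, and the members span a wider range of scores than the whole.

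**Figure D2:**
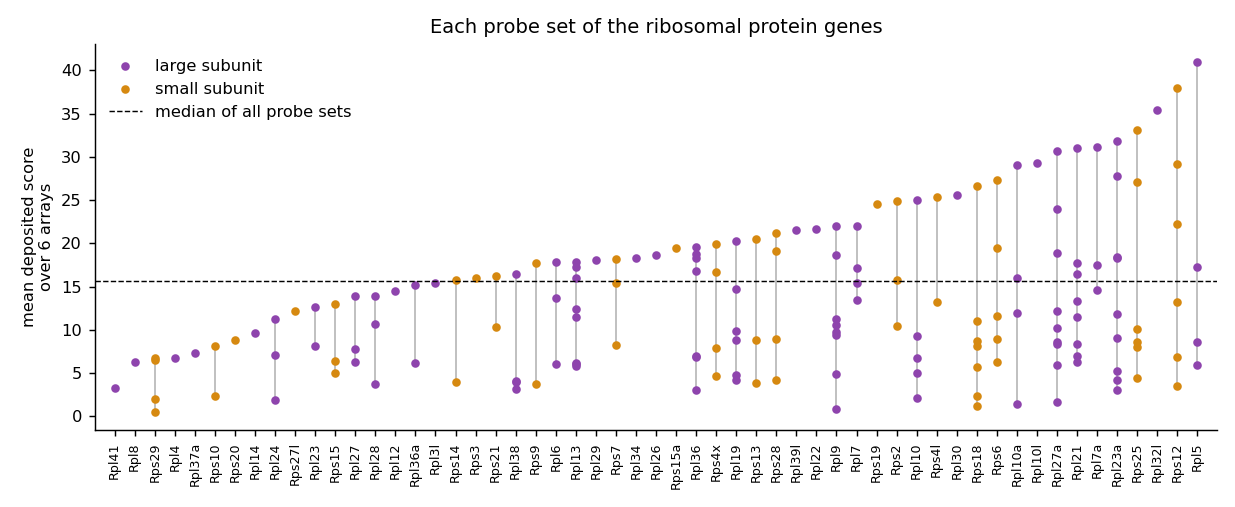
Mean deposited score over 6 arrays (y axis) of every probe set of the 55 genes (x axis, ordered by the highest probe set), coloured by subunit, with a grey line joining the probe sets of a gene. Probe sets of Rpl5 lie between 5.95 and 41.0, and the dashed line marks the median of all probe sets, 15.6.

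Between LSC and HSC, most ribosomal protein scores were lower in LSC, but the lean relative to all probe sets rested on 1 HSC array. Of 173 probe sets, 139 had a difference (LSC minus HSC) below 0, against 60.8% of all probe sets. The median difference was -0.971 for members and -0.429 for all, or -0.542 relative to all probe sets, and 113 of the 173 lay below the median of all. Arrays of the groups did not overlap for 73 members that were lower in LSC (23.0% of all probe sets) and for 7 that were higher (11.1% of all). Without HSC replicate 1 the relative median was 0.0705 and 86 of 173 members lay below the median of all. Without HSC replicate 2 it was -1.11, with 133 below. With no shift of all probe sets taken off, the members' median deviation from their own means was 0.692 and 0.313 in HSC. In LSC it was -0.551 and -0.229. For all probe sets the same deviation was 0.0112 and 0.647 in HSC, and -0.0952 and -0.0862 in LSC.

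No ribosomal protein probe set passed the test in this comparison. By limma with Benjamini-Hochberg adjustment over all probe sets, 0 of 173 had an adjusted p under 0.05 (0% of all probe sets), and the smallest adjusted p among them was 0.799. At an unadjusted limma p under 0.05 there were 9 members, 4 higher (1.49% of all probe sets) and 5 lower (3.45% of all). The members' share of 5.20% at that level compares with 4.94% over all probe sets. With 2 arrays a group the fit had 3 residual degrees of freedom, so differences of the size given below could have been missed, and 0 calls do not show that the groups' scores were alike.

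Rps25, a small subunit protein used by viral internal ribosome entry sites, had the smallest p among the lower members. Probe set 10542722 scored 30.8 and 30.8 in HSC, 24.2 and 23.7 in LSC, and 27.2 and 26.1 in Alox5-/- LSC. The 3 groups did not overlap, with HSC highest and LSC lowest. The difference of LSC from HSC was -6.90 (SE 1.27, n = 2 and 2), with an unadjusted limma p of 0.00165 and an adjusted p of 0.823. A second Rps25 probe set, 10457920, lies outside the naming rule and was chosen after its values were seen: it scored 40.1 and 36.2 in HSC, 26.8 and 33.9 in LSC, and 32.5 and 29.3 in Alox5-/- LSC. Its difference of LSC from HSC was -7.80 (SE 2.96). The gene's other 4 probe sets had means between 4.40 and 10.1 and differences from -3.39 to 0.0257.

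Other members with low p in this direction were less far apart. Rps9, a small subunit protein that binds early in assembly, scored 20.3 and 18.3 in HSC against 15.9 and 16.1 in LSC on probe set 10569069, a difference of -3.29 (SE 1.20). Rpl22, a large subunit protein needed for T cell development, scored 22.8 and 24.2 in HSC against 20.6 and 18.5 in LSC, a difference of -3.98 (SE 1.30). Rpl10a, a large subunit protein beside the exit site for spent transfer RNA, scored 19.0 and 20.2 against 16.7 and 15.3 on probe set 10407535, a difference of -3.55 (SE 1.33). In each of these 3 genes the LSC arrays lay below both HSC arrays. Their unadjusted limma p-values were 0.0342, 0.0222 and 0.0371, and their adjusted p was 0.993 in each case.

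Among members with higher scores in LSC, Rpl21 stood out on 1 of its 8 probe sets. Rpl21, a large subunit protein, scored 4.96 and 4.39 in HSC, 10.9 and 12.3 in LSC, and 5.21 and 4.35 in Alox5-/- LSC on probe set 10395737. Both LSC arrays lay above the other 4, which lay within 1 unit of each other. The difference of LSC from HSC was 6.95 (SE 1.16), with an unadjusted limma p of 0.00102 and an adjusted p of 0.799. On the other 7 Rpl21 probe sets that difference ran from -2.93 to 0.914, so the probe sets of the gene did not share a direction. Rps13, a small subunit protein, scored 15.9 and 11.9 in HSC against 18.0 and 29.5 in LSC on probe set 10567163, a difference of 9.86 (SE 3.82). That difference was 4.12 without LSC replicate 2 and 15.6 without LSC replicate 1. Rpl19 probe set 10417664 scored 1.45 and 1.71 in HSC against 7.44 and 4.43 in LSC, a difference of 4.35 (SE 1.46) that was 2.85 without LSC replicate 1. Rpl9 probe set 10389229 scored 17.6 and 15.4 in HSC against 19.8 and 19.8 in LSC, a difference of 3.26 (SE 1.22) that was 2.17 without HSC replicate 2. Of the 8 Rpl9 probe sets, 6 lay below the median of all probe sets. The gene's highest probe set differed by -2.81 (SE 1.34 in the fit over genes). The adjusted p was 0.993 for the Rps13 and Rpl19 probe sets named here and for Rpl9 probe set 10389229.

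**Figure D3:**
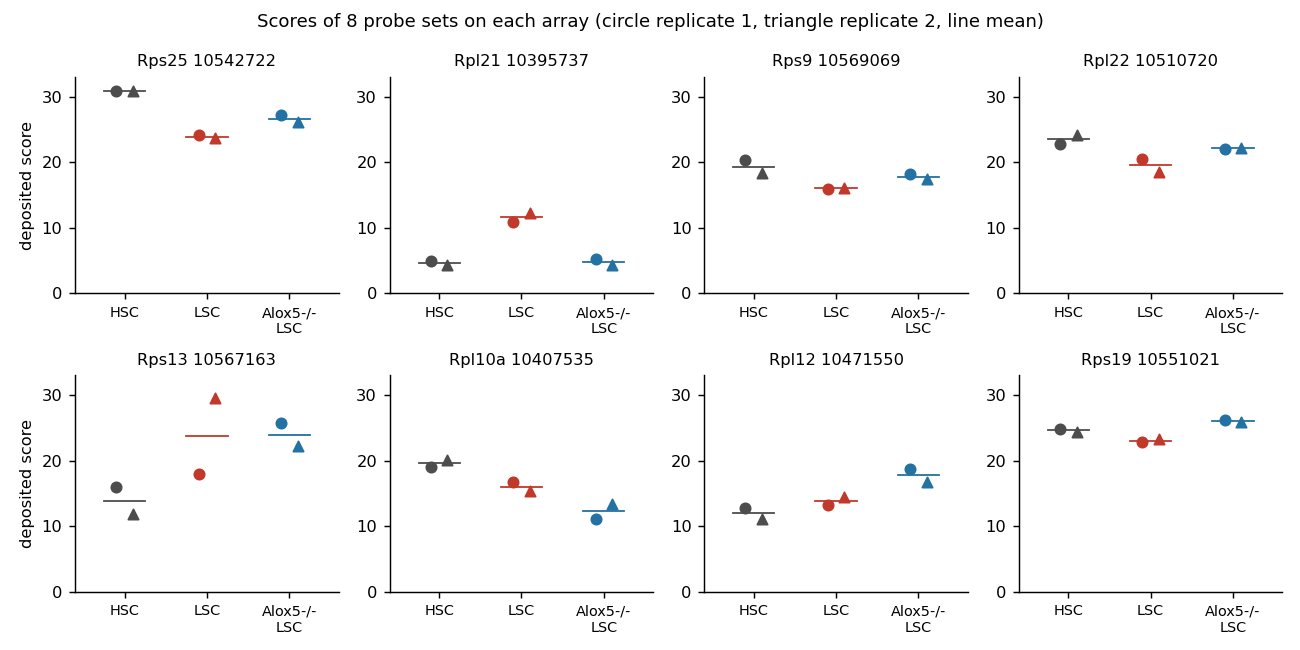
Deposited score (y axis, from 0) of 8 named probe sets on each array, by group (x axis); circles are replicate 1, triangles replicate 2 and lines the mean of 2 arrays. Rps25 lies at 30.8 in both HSC arrays and at 24.2 and 23.7 in LSC, and Rpl21 probe set 10395737 is higher in LSC than on the other 4 arrays.

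Between Alox5-/- LSC and LSC, ribosomal protein scores leaned the other way from probe sets at large. Of 173 probe sets, 96 had a difference (Alox5-/- LSC minus LSC) above 0 and 77 below 0, whereas 57.4% of all probe sets lay below 0. The median was 0.167 for members and -0.283 for all, 0.450 relative to all, and 54 of 173 lay below the median of all. Arrays did not overlap for 29 members that were higher in Alox5-/- LSC (10.9% of all probe sets) and 21 that were lower (20.7% of all). With no shift of all probe sets taken off, the members' median deviation from their own means was 0.339 and -0.620 in Alox5-/- LSC. In LSC it was -0.551 and -0.229, so the groups overlapped. For all probe sets the same deviation was 0.131 and -0.913 in Alox5-/- LSC, and -0.0952 and -0.0862 in LSC. The relative median stayed between 0.289 and 0.591 when each array was left out in turn. It was 0.190 with the number given in each sample's description as a covariate, a number whose meaning no source used here states. This comparison shares its LSC arrays with the first, so the values are side by side and are not independent.

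Here too 0 of 173 members passed an adjusted p of 0.05 in limma (0% of all probe sets), with a smallest adjusted p of 1.00. At an unadjusted limma p under 0.05 there were 5 members, 3 higher (1.22% of all) and 2 lower (2.73% of all), and their share of 2.89% compares with 3.96% over all probe sets.

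Rps19, the gene most often mutated in Diamond-Blackfan anaemia, had 1 probe set and close replicates. It scored 24.9 and 24.4 in HSC, 22.8 and 23.3 in LSC, and 26.1 and 25.8 in Alox5-/- LSC. Alox5-/- LSC was highest and LSC lowest, with no overlap. The difference of Alox5-/- LSC from LSC was 2.92 (SE 1.16, 95% interval 0.0718 to 5.76), with an unadjusted limma p of 0.0460 and an adjusted p of 1.00. In the fit over genes the unadjusted limma p was 0.0594. Rpl12, a protein of the large subunit stalk base, scored 13.3 and 14.5 in LSC against 18.8 and 16.7 in Alox5-/- LSC, a difference of 3.88 (SE 1.33). Rps6, the small subunit protein phosphorylated by S6 kinase, scored 18.4 and 13.5 in LSC against 22.9 and 21.0 in Alox5-/- LSC on probe set 10363699, a difference of 6.00 (SE 2.24). That Rps6 difference was 3.52 without LSC replicate 2. A second Rpl21 probe set, 10584122, scored 15.6 and 13.2 in LSC against 18.6 and 16.8 in Alox5-/- LSC, a difference of 3.29 (SE 1.37) that was 2.05 without LSC replicate 2. This probe set was not among the 3 higher members at an unadjusted limma p under 0.05.

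Lower scores in Alox5-/- LSC were led by the same Rpl21 probe set, 10395737, at a difference of -6.85 (SE 1.16, unadjusted limma p 0.00110, adjusted p 1.00). Because the LSC arrays alone were high on it, they enter both of its differences. Rpl10a probe set 10407535 scored 16.7 and 15.3 in LSC against 11.2 and 13.4 in Alox5-/- LSC, a difference of -3.76 (SE 1.33). Rpl19 probe set 10422852 scored 17.6 and 16.4 against 10.01 and 14.3, a difference of -4.87 (SE 2.11) that was -2.72 without Alox5-/- LSC replicate 1. Rpl13 probe set 10415660 scored 16.5 and 20.1 against 15.98 and 14.9, a difference of -2.82 (SE 1.51) that was -1.03 without LSC replicate 2. The Alox5-/- LSC arrays lay below both LSC arrays in each of these 4 probe sets. Those of Rpl19 and Rpl13 were not among the 2 lower members at an unadjusted limma p under 0.05. Over the 6 probe sets of Rpl19 this difference ran from -4.87 to 2.26, with the highest probe set at 0.646. Over the 8 of Rpl13 it ran from -2.82 to 1.84.

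Between Alox5-/- LSC and HSC, members and probe sets at large had almost the same median. It was -0.762 for members and -0.732 for all, -0.0306 relative to all, and 89 of 173 members lay below the median of all. Of 173 members, 117 had a difference below 0, against 67.1% of all probe sets. Arrays did not overlap for 56 members that were lower in Alox5-/- LSC (27.6% of all) and 14 that were higher (8.13% of all). The relative median was 0.626 without HSC replicate 1 and -0.566 without HSC replicate 2, with 61 and 113 members below the median of all.

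In limma 0 of 173 members passed an adjusted p of 0.05 (0% of all probe sets), the smallest being 0.769. At an unadjusted limma p under 0.05 there were 10, 4 higher (1.12% of all) and 6 lower (5.32% of all), a share of 5.78% against 6.44% over all probe sets.

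Rpl10a probe set 10407535 was lowest in Alox5-/- LSC. Its 3 groups followed each other without overlap, from 19.0 and 20.2 in HSC through LSC to 11.2 and 13.4. The difference of Alox5-/- LSC from HSC was -7.32 (SE 1.33), with an unadjusted limma p of 0.00155 and an adjusted p of 0.769. The highest Rpl10a probe set, 10410063, did not share this order: it scored 29.4 and 28.8 in HSC, 29.8 and 25.2 in LSC, and 31.3 and 29.5 in Alox5-/- LSC. Its differences were -1.56 for LSC minus HSC, 2.88 for Alox5-/- LSC minus LSC and 1.31 for Alox5-/- LSC minus HSC (SE 1.94 each). Rpl12 ran the other way from probe set 10407535, from 12.8 and 11.2 in HSC through 13.3 and 14.5 in LSC to 18.8 and 16.7, a difference of 5.77 (SE 1.33). Rps4x, the X-linked small subunit protein, scored 16.1 and 19.0 in HSC against 23.5 and 22.2 in Alox5-/- LSC, a difference of 5.27 (SE 1.94). Rps13 probe set 10567163 scored 25.7 and 22.2 in Alox5-/- LSC, a difference of 10.03 (SE 3.82) from HSC, and Rpl9 probe set 10389229 scored 19.8 and 19.5, a difference of 3.10 (SE 1.22). The difference of that Rpl9 probe set was 2.01 without HSC replicate 2. Of the 8 Rpl9 probe sets, 5 lay below the median of all probe sets in this comparison. The gene's highest probe set differed by -1.83 (SE 1.34 in the fit over genes).

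On the lower side, Rps25 probe set 10542722 differed from HSC by -4.15 (SE 1.27). Rpl13 probe set 10415660 scored 19.6 and 20.2 in HSC against 15.98 and 14.9, a difference of -4.46 (SE 1.51). Rpl27a probe set 10487643 scored 19.6 and 22.6 in HSC against 17.2 and 17.7, a difference of -3.66 (SE 1.37) that was -2.17 without HSC replicate 2. The other two, outside the naming rule and chosen after their values were seen, were Rps25 probe set 10457920 (-7.27, SE 2.96) and Rpl23a probe set 10421707 (-3.84, SE 1.51).

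**Figure D4:**
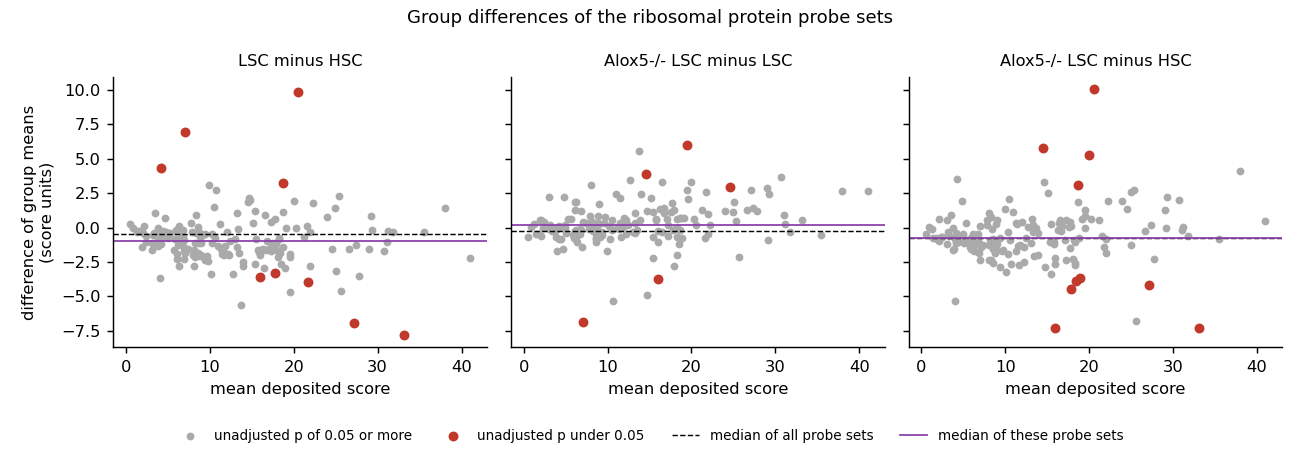
Difference of group means (y axis, score units) against mean deposited score (x axis) for the 173 probe sets in each comparison; red points have an unadjusted limma p under 0.05, and lines mark the median of all probe sets (dashed) and of the members (solid). The member median is -0.971 against -0.429 for LSC minus HSC, 0.167 against -0.283 for Alox5-/- LSC minus LSC, and -0.762 against -0.732 for Alox5-/- LSC minus HSC.

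Array by array, the spread between the HSC arrays was larger than any difference between group means of the members' shift. For each array the median deviation of members from their own means, less that of all probe sets, was 0.681 and -0.334 in HSC, -0.455 and -0.143 in LSC, and 0.208 and 0.293 in Alox5-/- LSC. Both LSC arrays lay below 0 and both Alox5-/- LSC arrays above it, while the HSC arrays lay on either side and overlapped both groups. The pooled SD within groups was 0.435. By the highest probe set of each gene the shifts were 0.876 and -0.731 in HSC, -0.470 and -0.502 in LSC, and 0.775 and 0.431 in Alox5-/- LSC, with a pooled SD of 0.671. By the lowest probe set they were 0.530 and -0.671, -0.263 and 0.0556, and -0.0848 and 0.567, and no group was then clear of another.

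**Figure D5:**
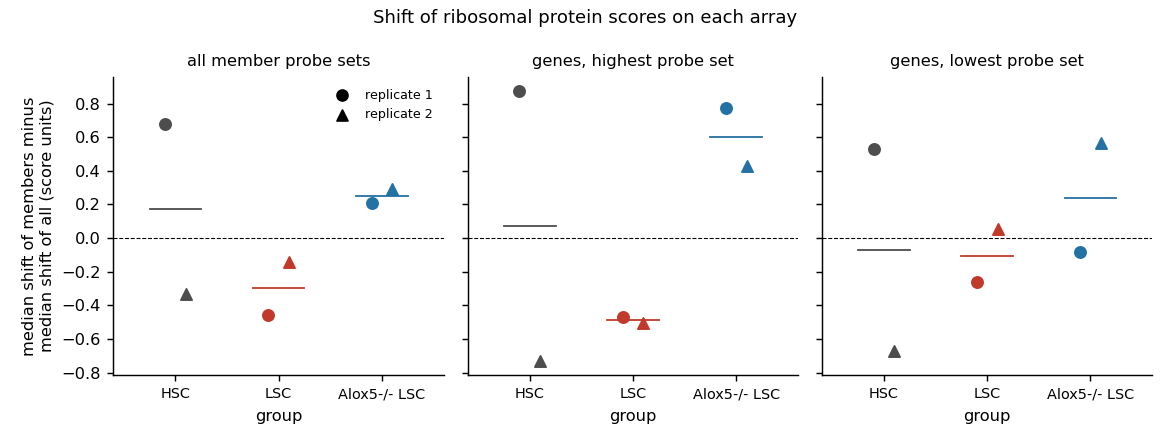
Shift of ribosomal protein scores on each array relative to all (y axis, score units), by group (x axis), for 173 probe sets and for 55 genes by their highest and lowest probe set; circles are replicate 1, triangles replicate 2 and lines group means. HSC arrays lie at 0.681 and -0.334 in the first panel and LSC and Alox5-/- LSC separate in the first and second panels only.

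The probe set taken for a gene changed the size of the shift, and in 1 comparison its sign. For LSC minus HSC the median over 55 genes, relative to all genes, was -0.726 by the highest probe set, -0.539 by the average and -0.171 by the lowest. The gene's difference was below 0 in 43 of 55 genes by the highest (62.8% of all genes) and 42 by the lowest (62.9% of all). For Alox5-/- LSC minus LSC the relative medians were 0.862, 0.536 and 0.208, with 17 of 55 genes below 0 by the highest (58.2% of all) and 31 by the lowest (58.3% of all). The value by the highest probe set was 0.176 with the description number as a covariate. For Alox5-/- LSC minus HSC they were 0.299, -0.0803 and 0.00772, with 32 of 55 below 0 by the highest (69.9% of all) and 42 by the lowest (70.2% of all). Without HSC replicate 1, the medians by the highest probe set were 0.301 for LSC minus HSC and 1.21 for Alox5-/- LSC minus HSC. Without HSC replicate 2 they were -1.42 and -0.468. By any of these 3 choices, 0 of the 55 genes had an adjusted limma p under 0.05.

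Probe sets of 1 gene often disagreed. Among the 35 genes with several probe sets, all lay below the median of all probe sets in 10 genes for LSC minus HSC, all above it in 2, and they were mixed in 23. The 10 included Rpl36 with 7 probe sets, Rps6 with 5, and Rpl6, Rps7 and Rps15 with 3 each, and the 2 were Rps29 and Rps4l, which RefSeq lists as a transcribed pseudogene. All probe sets lay above in 11 genes for Alox5-/- LSC minus LSC, among them Rps28 with 4 and Rpl6, Rpl7a, Rpl24, Rps2 and Rps7 with 3 each, below in 0, and mixed in 24. The counts for Alox5-/- LSC minus HSC were 3 below, 5 above and 27 mixed. Rpl23a and Rpl27a had the most probe sets, 9 each, followed by Rpl9, Rpl13 and Rpl21 with 8 each. Rps13 spread most in LSC minus HSC, from -1.37 to 9.86 over 3 probe sets, followed by Rpl21 (-2.93 to 6.95) and Rps25 (-7.80 to 0.0257).

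Large and small subunit members lay close to each other. The relative median was -0.641 for the large and -0.421 for the small subunit in LSC minus HSC, 0.330 and 0.518 in Alox5-/- LSC minus LSC, and -0.0567 and 0.133 in Alox5-/- LSC minus HSC. By mean score, the 96 members in the lowest 25% of all probe sets had a median difference that lay -0.403 from that of all probe sets there in LSC minus HSC. In the next bands of 25% it lay -0.389, -1.15 and -0.760 from it, over 15, 18 and 44 members, with no steady order. The 4 values were 0.185, 0.911, 0.878 and 0.872 for Alox5-/- LSC minus LSC, and -0.130, 0.420, 0.247 and 0.611 for Alox5-/- LSC minus HSC. Without the lowest 25%, 77 members were left, with relative medians of -0.985, 0.937 and 0.561.

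Rpl5, Rps14 and Rps19 were the members on the naming rule's chosen list of red cell failure genes, which need not be complete. They did not pass the test in any comparison, and neither did the highest probe set of Rps6. Rpl5 scored 40.7 and 42.5 in HSC, 39.0 and 39.8 in LSC, and 43.6 and 40.7 in Alox5-/- LSC. Its differences were -2.17 for LSC minus HSC and 2.68 for Alox5-/- LSC minus LSC (SE 2.50 each), so that intervals of -8.30 to 3.95 and -3.44 to 8.81 still allow sizeable shifts. Leaving out 1 array moved them from -3.08 to -1.26 and from 1.24 to 4.13. In the fit over genes by highest probe set the SE of Rpl5 was 1.22, and its unadjusted limma p 0.118 and 0.0640. Rps14 scored 18.2 and 15.5 in HSC, 14.7 and 15.4 in LSC, and 16.8 and 14.4 in Alox5-/- LSC, and its difference for LSC minus HSC was -1.79 (SE 1.496), or -0.439 without HSC replicate 1 and -3.14 without HSC replicate 2. Rps19 differed by -1.56 (SE 1.16) for LSC minus HSC and by 1.35 (SE 1.16) for Alox5-/- LSC minus HSC. The highest Rps6 probe set, 10573821, scored 28.9 and 26.7 in HSC, 26.8 and 26.2 in LSC, and 28.6 and 27.2 in Alox5-/- LSC. Its Alox5-/- LSC minus LSC difference was 1.42 (SE 1.45), or 0.729 without Alox5-/- LSC replicate 1, smaller than the 6.00 of the gene's other named probe set.

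Some ribosomal proteins have a paralogue, a second gene for nearly the same protein, often used in few tissues. Rpl10, a large subunit protein near the peptide centre, scored 27.9 and 25.1 in HSC, 22.8 and 23.98 in LSC, and 26.8 and 23.8 in Alox5-/- LSC on its highest probe set. Its LSC minus HSC difference was -3.13 (SE 1.69), or -1.73 without HSC replicate 1, and both LSC arrays lay below both HSC arrays. Rpl10l, its paralogue known from testis, scored 28.7 and 28.5 in HSC, 31.6 and 25.3 in LSC, and 30.3 and 31.4 in Alox5-/- LSC, with a difference of -0.168 (SE 2.27) for LSC minus HSC that turned to 0.307 when each array was centred on its median. The LSC arrays of Rpl10l lay on either side of all the others. Rpl39l scored between 20.2 and 22.1 on all 6 arrays, with overlapping groups. Its Alox5-/- LSC minus HSC difference, -0.642 (SE 1.22), was 0.240 after centring. Rpl3l, a muscle paralogue of Rpl3, scored between 13.6 and 18.8, and Rps27l, a p53 target, between 10.9 and 13.3. The 7 probe sets of 6 genes whose symbols end in l, 2 of them of Rps4l, had a relative median of 0.540 in LSC minus HSC, and the 166 others -0.597. These medians were -0.130 and 0.455 in Alox5-/- LSC minus LSC, and 0.0898 and -0.0365 in Alox5-/- LSC minus HSC.

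Genes that build or drive the ribosome were read for comparison by their highest probe set, from lists written with earlier results known. In the fit over 19934 genes, 0 genes of these lists had an adjusted limma p under 0.05. At an unadjusted p under 0.05, the shares of all genes higher and lower were 0.968% and 3.74% for LSC minus HSC, 0.813% and 2.59% for Alox5-/- LSC minus LSC, and 0.742% and 6.24% for Alox5-/- LSC minus HSC. Among the 55 ribosomal protein genes the counts were 1 higher and 3 lower, 1 higher and 0 lower, and 4 higher and 2 lower.

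Ribosome biogenesis genes, which make ribosomal RNA and assemble the subunits, had relative medians of -1.05, -0.240 and -1.17 in the 3 comparisons over 40 genes. Of the 40, 0 higher and 5 lower had an unadjusted p under 0.05 in LSC minus HSC, 0 and 1 in Alox5-/- LSC minus LSC, and 1 and 9 in Alox5-/- LSC minus HSC. Ddx21, an RNA helicase of the nucleolus, scored 15.4 and 17.7 in HSC, 10.6 and 12.7 in LSC, and 10.7 and 9.92 in Alox5-/- LSC. Rrn3, which brings RNA polymerase I to its promoter, scored 21.0 and 25.2, then 15.5 and 17.4, then 16.7 and 13.9. Npm1, the nucleolar chaperone nucleophosmin, scored 11.1 and 10.2, then 6.93 and 8.19, then 8.26 and 8.48. Sbds, which frees the large subunit for translation and is mutated in Shwachman-Diamond syndrome, scored 19.2 and 23.4, then 17.3 and 15.1, then 15.2 and 14.2. In these 4 genes both BCR-ABL groups lay below both HSC arrays, with differences of LSC from HSC of -4.86 (SE 1.28), -6.63 (SE 1.86), -3.12 (SE 0.928) and -5.14 (SE 1.74). Pes1 ran the other way, at 13.8 and 10.9 in HSC, 15.4 and 16.5 in LSC, and 22.5 and 15.1 in Alox5-/- LSC. It was the 1 higher gene of Alox5-/- LSC minus HSC, with a difference of 6.45 (SE 2.40). In LSC minus HSC, 29 of the 40 genes lay below the median of all genes.

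Translation initiation and elongation factors had relative medians of -1.19, 0.0715 and -0.750 over 32 genes, with 0 higher and 3 lower, 1 and 0, and 0 and 7 at that level. Eif3m, an initiation factor subunit, scored 23.7 and 25.7 in HSC, 20.8 and 19.1 in LSC, and 18.4 and 21.2 in Alox5-/- LSC. Eif5, which triggers GTP hydrolysis at the start codon, scored 17.7 and 18.1, then 13.4 and 15.3, then 18.3 and 16.9, so that LSC lay below both other groups. Mitochondrial ribosomal proteins, which serve a separate ribosome, had relative medians of -0.593, 0.397 and 0.194 over 75 genes, with 2 higher and 3 lower, 1 and 3, and 0 and 6. In LSC minus HSC, 51 of the 75 lay below the median of all genes. The 3 lower genes there were Mrps28 (-5.04, SE 1.76), Mrpl18 (-4.52, SE 1.82) and Mrpl11 (-4.48, SE 1.68). Mrpl47, 1 of the 2 higher genes there, scored 19.8 and 19.5 in HSC, 23.6 and 23.5 in LSC, and 19.2 and 19.7 in Alox5-/- LSC, with LSC above both others. The 7 measured ribosomal proteins outside the name pattern had relative medians of -1.08, 0.355 and -0.717, and 1 of them, Fau, was lower at that level in Alox5-/- LSC minus HSC.

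The 16 genes of mTORC1 signalling and of the control of ribosomal protein messenger RNAs had relative medians of 0.463, -0.230 and 0.0421, with 1 higher and 1 lower, 0 and 3, and 0 and 1. Akt1, a kinase upstream of mTORC1, scored 14.1 and 15.99 in HSC, 20.9 and 17.6 in LSC, and 13.4 and 14.7 in Alox5-/- LSC. Tsc1, which restrains mTORC1, scored 18.2 and 16.7, then 18.9 and 19.2, then 16.1 and 16.2. Myc, a driver of ribosome production, scored 8.88 and 10.6, then 6.41 and 8.63, then 6.97 and 6.70. The 8 measured genes of the p53 response to free ribosomal proteins had relative medians of 0.0617, 0.164 and 0.354, with 0 of 8 at that level in any comparison.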

How the data were processed

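Per the labels' protocols, 100 to 300 ng of total RNA from sorted cells was amplified and hybridised to Affymetrix whole-transcript arrays. The authors deposited a score for each probe set on each array. Affymetrix Expression Console 1.1 and RMA are named in the submitters' processing notes, but the deposited score does not have the range of log2 expression. The table lists 35557 probe sets, and 1058 of them hold no value on any array. Symbols came from the platform annotation.

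Scores were used as deposited. Each probe set was fitted with limma 3.58.1 (R 4.3.3), with a mean per group over all 6 arrays and a prior variance following the mean score. Tests were two-sided, with Benjamini-Hochberg adjustment over all 34499 probe sets, or 19934 genes, at a threshold of 0.05. The fit was tested on simulated data, where small and moderate shifts were mostly missed, and the recovery required of it was lowered after a first run fell short. The small number of arrays limits the precision. The naming rule took the 4 member probe sets of smallest p in each direction, red cell failure genes, Rps6, paralogues, genes with the most or most divergent probe sets, and up to 4 genes per other list. Members and lists were chosen with earlier results of these data known. Alternatives were array centring, quantile normalization, a single prior variance, fits without the lowest 25% of scores, with a replicate block, with the description number, with only the groups compared, by average or lowest probe set, and without each array. Chosen after seeing the data were the addition of probe sets with several symbols, the counts below the median, and the promoters and motifs. Deviations of same-numbered arrays from their group means correlated between groups at -0.0250, -0.0476 and -0.0405 across probe sets, so the numbers were not taken to pair samples.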

Additional observations from a re-analysis of the deposited data

How the results depend on the processing

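In each of the 3 comparisons, 0 members had an adjusted limma p under 0.05 under every alternative run. For LSC minus HSC, the count at an unadjusted p under 0.05 was 5 with the replicate block and 5 to 9 leaving out 1 array. The relative median of probe sets ran from -1.11 to 0.0705 and that of genes from -1.42 to 0.30 leaving out 1 array, and the count below the median from 86 to 133. For Alox5-/- LSC minus LSC, the unadjusted count was 3 without the lowest 25% of scores, 1 with the description number and 2 to 8 leaving out 1 array. The relative median of genes was 0.176 with the description number and 0.81 to 1.54 leaving out 1 array, and the count below the median ran from 46 to 71. The unadjusted count for Alox5-/- LSC minus HSC was 5 with the description number and 5 to 8 leaving out 1 array. The relative median ran from -0.57 to 0.63 for probe sets and from -0.47 to 1.21 for genes leaving out 1 array. Without the lowest 25% of scores the relative medians of probe sets were -0.985, 0.937 and 0.561, and 49, 20 and 31 of 77 members lay below the median. Adding probe sets with several symbols gave relative medians of -0.418, 0.479 and 0.0625. The replicate block gave unadjusted counts of 5, 4 and 7 against 9, 5 and 10 and left the medians as they were, and the numbers are not known to pair samples.

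With the description number, signs turned for Alox5-/- LSC minus LSC in Rps14 (-1.53), Rps6 (-0.31), Rpl10 (-0.42) and Rps27l (-0.30), for Alox5-/- LSC minus HSC in Rps6 (-0.71) and for LSC minus HSC in Rpl10l (0.33). Rpl10l in LSC minus HSC was 0.31 with centring and 0.42 with quantile normalization, and Rpl39l in Alox5-/- LSC minus HSC 0.24 and 0.15. Leaving out 1 array, these named probe sets had differences on both sides of 0. For LSC minus HSC the range was -3.30 to 2.96 in Rpl10l, -0.14 to 0.37 in Rpl39l, -0.36 to 4.28 in Rps4x and -1.04 to 3.43 in Rpl3l. In Alox5-/- LSC minus LSC it was -0.62 to 1.82 in Rps14, -0.70 to 5.55 in Rpl10l, -1.69 to 0.18 in Rpl39l and -0.20 to 1.33 in Rps27l. In Alox5-/- LSC minus HSC it was -0.93 to 1.96 in Rpl5, -2.54 to 0.16 in Rps14, -0.95 to 1.26 in Rps6, -2.74 to 0.25 in Rpl10 and -1.58 to 0.30 in Rpl39l. The cause was not tested.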
